A study of Homo sapiens with 15 samples.

Results

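BAQ13 nanoparticles (NPs) were compared with vehicle in MIA PaCa-2, a human pancreatic carcinoma cell line, across all genes. The comparison rests on 6 of the 15 RNA-seq libraries of the series, namely the 3 labelled BAQ13 and the 3 labelled Ctrl, here the vehicle group, and the members were taken from these labels alone. BAQ13 is a bisaminoquinoline derivative that assembles into nanoparticles on its own, and it was designed to act on lysosomes. The other 9 libraries were treated with Lys05 (a dimeric chloroquine-type autophagy inhibitor), with BAQ12 NPs or with an agent labelled BAQ12O, 3 libraries each. Treated cells received 5 µM for 24 h. The samples are labelled as epithelial cells of pancreatic origin, all groups are cells of the same line, and no label says whether the 3 libraries of a group came from separate cultures. The p-values therefore measure only the spread between these libraries, which may be technical. Genes of lysosomes, cholesterol synthesis, liver X receptor targets and the cell cycle were left out of the account below, which describes the remaining induced and repressed programs.

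Each library held between 1864594 and 2500551 reads on genes in the 2 groups, and between 15053 and 15632 genes were detected. The values are normalised read counts, that is, the reads on a gene scaled by a factor for its library, and a floor of 3 reads corresponded to 2.49 to 3.35 normalised counts. Floors cover counting error only. The vehicle libraries differed little more than counting error allows, with a chi-square per gene and degree of freedom of 1.06 to 1.34 between pairs, where 1 is expected from counting alone. The BAQ13 libraries differed more, with 3.40 for replicates 1 and 2, 6.21 for replicates 1 and 3 and 1.77 for replicates 2 and 3. Replicate 3 of BAQ12, a library outside the main comparison, stood apart from its group with 11.4 and 13.5. The count of genes called against BAQ12 is given with and without it, as are the values of some genes. No 2 libraries held identical values. The epithelial keratin KRT19 was at 486 to 509 normalised counts in the vehicle group and 522 to 550 with BAQ13 NPs, and vimentin (VIM) was at 10115 to 10701 and 9412 to 10521. Of 11 epithelial and mesenchymal markers, 6 were tested. The keratins KRT8 and KRT18 fell and ZEB1 rose, with values given below. The epithelial adhesion gene EPCAM was at 0 in all 6 libraries, and CDH1 and KRT7 were under the floor. Of 14 markers of other cell types, 9 were at 0 in all 6 libraries (CD3E, PECAM1, DCN, LUM, HBB, ALB, INS, PRSS1 and AMY2A) and 12 did not pass 3 reads in any. Their summed level was 217 to 257 normalised counts in the vehicle group and 153 to 175 with BAQ13 NPs, nearly all of it from COL1A2, a fibrillar collagen chain.

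Cells answer stress in their lysosomes and membranes through several transcriptional routes. Sterol regulatory element binding proteins switch on enzymes that make fatty acids from acetyl-CoA, TFEB and its relatives switch on autophagy receptors and Rag GTPases, and NRF2 switches on genes of glutathione, NADPH and haem metabolism. The nuclear factor NF-kB drives inflammatory and survival genes, ATF4 drives the integrated stress response, and YAP and TAZ drive genes of adhesion and the cytoskeleton. Mitochondria carry their own small genome, which is transcribed from both strands as long precursors that are cut into rRNAs, mRNAs and tRNAs.

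BAQ13 NPs changed 947 of the 10495 genes tested at an adjusted p under 0.05 by limma. Of these, 549 rose, which is 5.23% of the genes tested, and 398 fell, which is 3.79%. The counts of each list below are to be read against these shares. The lists were chosen with earlier results of these data known, so a count above these shares is a description and no separate support. The threshold used in the study, a fold change of at least 2 with an unadjusted p of at most 0.05, was passed by 231 genes, or 2.2%. The p here is that of limma, whereas the study used a t test and a larger set of genes, so the count is not comparable with the study's. The median log2 fold change over all genes tested was -0.004. The left-out lists held 98 of the 947 genes and the mitochondrial genome held 26, and 823 others remained, of which 485 rose and 338 fell. Among the latter, the largest increases with a mean of at least 20 normalised counts and no overlap of the groups were in VASH2, ACSS2, ALDOC, NDRG4, SLC2A6, TSC22D3, BIRC3, UAP1L1, KIF1A, HMOX1, UCA1 and FASN. The largest decreases reported were in FAM111B, PLAUR, IGFBP4, MTND2P28, PHLDB2, MYCBP, RP5-943J3.2, TAP2, PFN1 and XRCC2. Absence of overlap was a condition for naming all of these genes by size, so that the separation of their groups below is no separate result. The count depends on the libraries in the fit. Without vehicle replicate 1, 2 or 3 or BAQ13 replicate 2 it was 523, 400, 400 and 456, and without BAQ13 replicate 1 or 3 it was 1342 and 1446. A fit of all 15 libraries, which shares the wide spread of BAQ12, gave 606, and the same fit without BAQ12 replicate 3 gave 1441. RNA was extracted from bulk cultures, so that fewer cells of a kind and less RNA per cell cannot be told apart.

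**Figure D1:**
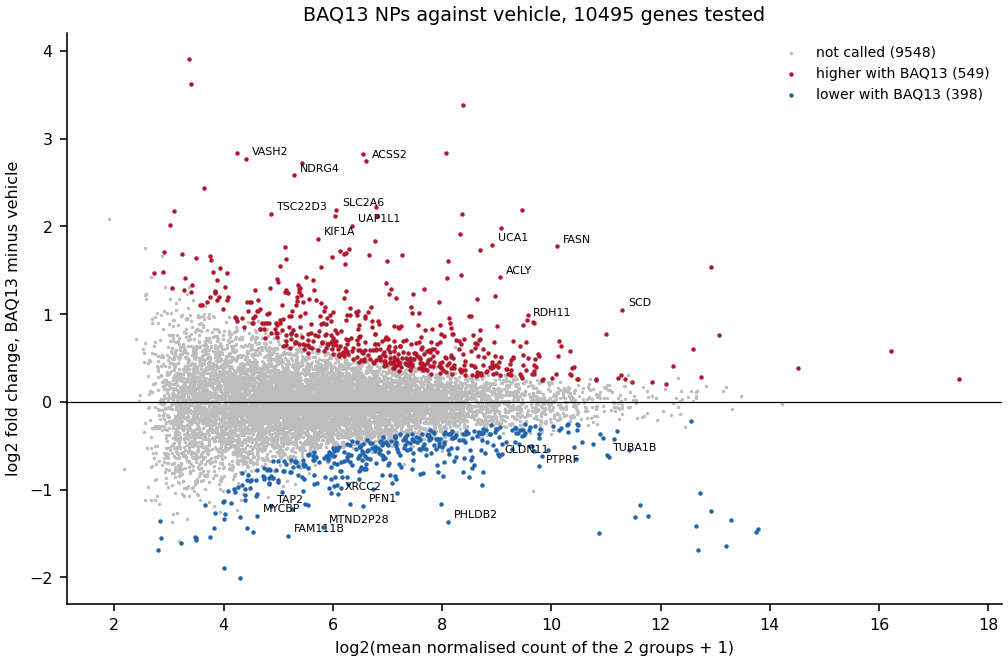
Each point is a gene, with the log2 of its mean normalised count plus 1 over both groups on the horizontal axis and its log2 fold change, BAQ13 NPs minus vehicle, on the vertical axis; red points rose (549 genes), blue points fell (398 genes) and grey points did not pass an adjusted p of 0.05. FASN and SCD stand out among well-expressed genes on the upper side and PHLDB2 and PTPRF on the lower side, and the blue points apart at the lower right are mRNAs of the mitochondrial genome.

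Genes of fatty acid synthesis were among those that rose. Of 33 genes listed, 28 were tested, and 13 rose and none fell, against the 5.23% and 3.79% of all genes given above; the median over the 28 was 0.32 on the log2 scale. The enzymes that supply and extend the chain, from acetyl-CoA production through synthesis to desaturation, each had a member among the 13. Leaving out single libraries gave between 11 and 13 increases. FASN, ACSS2, ACLY, SCD and ME1 kept their call in every alternative. The 250 bases upstream of the RefSeq start of 3 of these genes are shown because ACSS2 had the largest change of the group, ACLY supplies the acetyl-CoA and SCD desaturates the product, and each window holds the letters CCAAT, the box bound by the general promoter factor NF-Y. They are from RefSeq in build GRCh38.p14, written 5′ to 3′ on the strand of the gene, and capitals mark CCAAT or its reverse complement. They lie at chr20:34874739-34874988 on the plus strand for ACSS2, at chr17:41919023-41919272 on the minus strand for ACLY and at chr10:100346983-100347232 on the plus strand for SCD. The span in GENCODE, the annotation from which gene positions are given here, begins for each gene whose window is printed upstream of the RefSeq start, from which the windows are measured.
ACSS2: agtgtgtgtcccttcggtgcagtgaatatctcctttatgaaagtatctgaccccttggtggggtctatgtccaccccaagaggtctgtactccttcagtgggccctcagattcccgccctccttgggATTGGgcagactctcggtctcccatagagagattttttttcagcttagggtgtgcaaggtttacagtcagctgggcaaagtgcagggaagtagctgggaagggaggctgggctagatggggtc
ACLY: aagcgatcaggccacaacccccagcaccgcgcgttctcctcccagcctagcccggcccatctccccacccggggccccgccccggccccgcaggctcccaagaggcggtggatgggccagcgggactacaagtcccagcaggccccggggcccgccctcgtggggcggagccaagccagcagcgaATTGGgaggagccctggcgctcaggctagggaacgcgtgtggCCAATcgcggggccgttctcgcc
SCD: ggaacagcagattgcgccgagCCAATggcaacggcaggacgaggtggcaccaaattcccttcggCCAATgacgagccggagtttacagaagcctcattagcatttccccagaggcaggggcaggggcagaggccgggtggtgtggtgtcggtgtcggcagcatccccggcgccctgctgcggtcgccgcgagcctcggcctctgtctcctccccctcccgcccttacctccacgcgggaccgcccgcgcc

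The match lies 123 bases before the start in ACSS2, 65 and 23 bases before it in ACLY, and 229 and 186 bases before it in SCD, counted to the first base of each match. CCAAT was searched on both strands, and 33% of the 27326 windows of the same length, 1 per gene, hold it, as do 35.9% of the 7757 windows of genes tested. Of the fatty acid synthesis genes tested, 22 had a window and 11 of these (50%) held the box, and among the members that rose 4 of 10 (40%) did. Letters like the sterol response element, TCACNCCAC, were held by 0.867% of all windows and 0.877% of those of genes tested. They were held by 1 of 22 (4.55%) fatty acid synthesis genes tested and by 0 of 10 of those that rose. These shares are given as a description of the letters only.

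ACSS2, which makes acetyl-CoA from acetate (ENSG identifiers of all genes are as deposited; chromosome 20, 34872146 to 34927962 in GRCh38), was at 15.8, 30.1 and 29.4 normalised counts in the vehicle group and at 183, 159 and 161 with BAQ13 NPs. The groups lay far apart, and its mean rose 6.67-fold (log2 fold change 2.74, SE 0.21, adjusted p = 3.5e-07 by limma). ACLY, the citrate lyase that releases cytosolic acetyl-CoA, was at 318, 267 and 278 against 637, 823 and 867, and rose by a log2 fold change of 1.42 (SE 0.11, adjusted p = 5.5e-07). FASN, the synthase that builds palmitate (chromosome 17, 82078333 to 82098332), was at 496, 495 and 506 in the vehicle group and at 1794, 1634 and 1696 with BAQ13 NPs. Its vehicle libraries were nearly equal and lay far below those with BAQ13 NPs, and it rose 3.42-fold (log2 fold change 1.77, SE 0.07, adjusted p = 5.1e-10). SCD, the stearoyl-CoA desaturase, was at 1646, 1620 and 1620 against 3356, 3349 and 3423 (log2 fold change 1.05, SE 0.06, adjusted p = 1.1e-08). ME1, the malic enzyme that supplies cytosolic NADPH, rose by 0.92 on the log2 scale (66.4, 77.0 and 72.5 against 131, 141 and 140.0 normalised counts, adjusted p = 0.00017). Of the remaining members, ELOVL6 and ACSL1 were picked out after their values were seen. ELOVL6, the elongase that takes palmitate to stearate, was at 30.7, 45.8 and 29.4 against 115, 113 and 115 (log2 fold change 1.69), and ACSL1, a long-chain acyl-CoA synthetase, was at 17.4, 21.2 and 29.4 against 56.0, 61.1 and 54.5 (log2 fold change 1.33). The gene of the transcription factor SREBP-1 itself, SREBF1, also looked at after its values were seen, fell from 46.5, 58.1 and 61.5 to 29.9, 34.6 and 34.4 normalised counts (log2 fold change -0.72, adjusted p = 0.018).

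**Figure D2:**
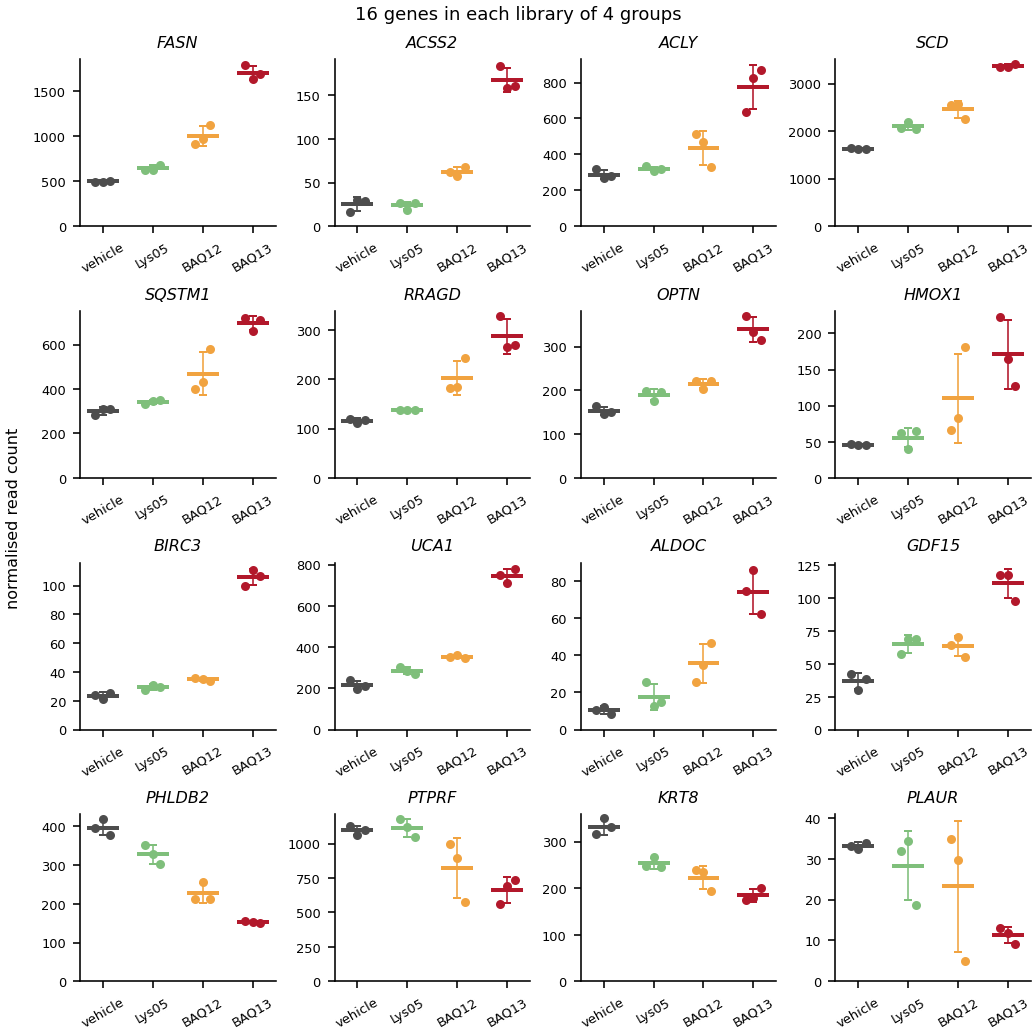
Normalised read counts (vertical axes, starting at 0) of 16 genes in the 3 libraries each of vehicle, Lys05, BAQ12 and BAQ13; points are libraries, thick lines are means and thin bars are the SD of 3 libraries. In each panel the BAQ13 libraries lie all above or all below the vehicle libraries, as for 944 of the 947 genes called. Examples are FASN at 1634 to 1794 against 495 to 506 and PHLDB2 at 150.0 to 157 against 377 to 418.

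In the list of phospholipases, triglyceride and lipid droplet genes, 53 of 68 were tested, and 5 rose and 2 fell with a median of 0.10. Of all genes, 5.23% rose and 3.79% fell, and the decreases of this list were near that share. Leaving out single libraries gave 4 to 9 increases and 0 to 5 decreases, with 0 without BAQ13 replicate 2 or any vehicle library. PLA2G3, a secreted phospholipase A2, had 0, 0 and 1 reads in the vehicle libraries and 23, 24 and 14 reads with BAQ13 NPs, so that it was at least 6.41-fold higher against a floor of 3 reads per library (adjusted p = 8.2e-05). It passed the filter on low counts only through treated libraries, so its p-value is a description and no separate support. PCYT2, the rate-setting enzyme of phosphatidylethanolamine synthesis by the Kennedy pathway, was at 34.9, 31.3 and 27.5 normalised counts against 124, 113 and 81.3 (log2 fold change 1.72, SE 0.18, adjusted p = 1.3e-05). HADHA, a subunit of the mitochondrial trifunctional protein of fatty acid oxidation, rose by 0.69 on the log2 scale (830.2, 855 and 880.3 against 1554, 1305 and 1303, adjusted p = 3.9e-05). The cytosolic phospholipase PLA2G4C was at 2.49, 4.47 and 3.67 against 14.9, 11.8 and 13.4 normalised counts (log2 fold change 1.68, adjusted p = 0.0078), a call that was lost with an adjusted p of 0.055 in the fit of all 15 libraries. PLA2G4C too passed the filter only through treated libraries. PLIN2, the main lipid droplet coat gene and the first of the list, was at 116, 114 and 100.1 against 125, 149 and 147 normalised counts and did not pass the test (log2 fold change 0.34, adjusted p = 0.091).

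Of 69 autophagy genes, 65 were tested, and 14 rose and 1 fell, against 5.23% and 3.79% of all genes, with a median of 0.22. The receptors that tie cargo to the autophagosome and the GTPases that report nutrients at the lysosome were among those that rose. Leaving out single libraries gave 7 to 18 increases, the lowest without vehicle replicate 2. SQSTM1, the receptor p62 (chromosome 5, 179806398 to 179838078), was at 282, 309 and 312 normalised counts in the vehicle group and at 720.4, 659.9 and 709.9 with BAQ13 NPs, and rose by 1.21 on the log2 scale (SE 0.08, adjusted p = 1.1e-07). OPTN, the receptor optineurin, was at 164, 146 and 151 against 370.5, 333 and 315 (log2 fold change 1.14, SE 0.10, adjusted p = 2.1e-06). RRAGD, a Rag GTPase, was at 120.4, 112 and 118 against 328, 265 and 269 (log2 fold change 1.29, SE 0.11, adjusted p = 1.5e-06). These ranges did not overlap, which was so for 944 of the 947 genes called. WIPI1, which binds the lipid of the forming autophagosome, rose by 1.21 on the log2 scale (21.6, 29 and 23.9 against 60.7, 53.8 and 61.2, adjusted p = 0.0005). FLCN, the folliculin that acts on the Rag GTPases, was picked out after its values were seen and was at 73.1, 61.4 and 56.0 against 149, 120.3 and 109.8 normalised counts (log2 fold change 0.98). The member that fell was ATG16L1, a scaffold of the lipidation of LC3, at 29.9, 38 and 33.0 against 18.7, 13.7 and 21.8 (log2 fold change -0.88, adjusted p = 0.025). Its adjusted p was 0.063, 0.14 and 0.1 without vehicle replicate 1, 2 or 3, 0.11 without BAQ13 replicate 2 and 0.1 by DESeq2. The E-box CACGTG, read by TFEB and other factors of its class, was held by 6.47% of all windows and 9.44% of those of genes tested, by 6 of 52 (11.5%) autophagy genes tested that had a window, and by 3 of 11 (27.3%) of those that rose.

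Genes of the oxidative stress response, of which 40 of 45 were tested, gave 13 increases and 1 decrease, with a median of 0.22. Of all genes, 5.23% rose and 3.79% fell. Leaving out single libraries gave 7 to 13 increases, the lowest without vehicle replicate 1 or BAQ13 replicate 2. HMOX1, the haem oxygenase that frees iron from haem (chromosome 22, 35380361 to 35394214), was at 47.3, 45.8 and 45.0 normalised counts in the vehicle group and at 222, 164 and 127 with BAQ13 NPs. The BAQ13 libraries spread widely and all lay above the vehicle libraries, and it rose by 1.84 on the log2 scale (SE 0.17, adjusted p = 3.8e-06). PGD, an NADPH-making enzyme of the pentose phosphate pathway, rose by 1.19 (39.0, 43.5 and 49.6 against 92.4, 101 and 111, adjusted p = 9.7e-05). SQSTM1, ME1 and FTL are also in this list. The ferritin light chain FTL was at 4894, 4929 and 4800 against 8704, 7167 and 6512 (log2 fold change 0.60, SE 0.08, adjusted p = 0.00026), and ferritin has processed copies in the genome that could share its reads. NQO1, a quinone reductase often used to mark NRF2 activity and looked at after its values were seen, did not pass the test (939.8, 1026 and 1003 against 827, 911 and 974, log2 fold change -0.13, adjusted p = 0.33). The decrease was in PRDX6, a peroxiredoxin (log2 fold change -0.30, adjusted p = 0.01), which was lost without vehicle replicate 2 or 3 or BAQ13 replicate 2 with adjusted p of 0.058, 0.1 and 0.053. Of 27 iron genes tested, 3 rose, HMOX1, FTL and FTH1, and 1 fell, ALAS1, the first enzyme of haem synthesis. FTH1, the ferritin heavy chain, kept its call in only 1 of the 6 fits without a single library, that without BAQ13 replicate 1. ALAS1 was at 54.8, 50.2 and 49.6 normalised counts against 30.8, 27.3 and 27.7 (log2 fold change -0.83, SE 0.17, adjusted p = 0.0068). The antioxidant response element core TGACNNNGC was held by 11.1% of all windows and 12.5% of those of genes tested, by 7 of 30 (23.3%) of the oxidative stress genes tested that had a window and by 2 of 10 (20%) of those that rose.

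Among NF-kB and inflammatory genes, 22 of 41 were tested, and 7 rose and 1 fell, against 5.23% and 3.79% of all genes, with a median of 0.33. Leaving out single libraries gave 5 to 7 increases. BIRC3, the ubiquitin ligase cIAP2 that restrains cell death (chromosome 11, 102317450 to 102339403), was at 24.1, 21.2 and 25.7 normalised counts in the vehicle group and at 99.8, 111 and 106 with BAQ13 NPs. Each BAQ13 library was far above each vehicle library, and BIRC3 rose by 2.12 on the log2 scale (SE 0.16, adjusted p = 3.2e-07). IL21R, a cytokine receptor chain, had 1, 1 and 0 reads against 18, 25 and 19, which makes it at least 6.46-fold higher against the same floor (adjusted p = 8.2e-05). It passed the filter on low counts only through treated libraries, so its p-value too is a description only. IRF1, an interferon regulatory factor, rose by 0.97 (26.6, 23.4 and 21.1 against 47.6, 51.0 and 43.6, adjusted p = 0.004). SAT1, which acetylates polyamines, rose by 0.83 (163, 147 and 173 against 278, 314 and 272, adjusted p = 8.7e-05). RELB, a subunit of NF-kB that was picked out after its values were seen, was at 21.6, 16.7 and 19.3 normalised counts against 65.3, 49.2 and 31.8 (log2 fold change 1.25). The inhibitor gene NFKBIA showed a smaller and less stable increase, at 615, 607 and 598 against 635, 897 and 930.3 (log2 fold change 0.41, adjusted p = 0.034). Its adjusted p was 0.11, 0.15 and 0.15 without vehicle replicate 1, 2 or 3, 0.17 and 0.052 without BAQ13 replicate 2 or 3 and 0.31 in the fit of all 15 libraries. CXCL8, the chemokine most used to read this pathway and likewise seen afterwards, was at 59.8, 51.4 and 52.3 against 44.8, 57.4 and 67.0 normalised counts and did not pass the test (adjusted p = 0.93). The hyaluronan receptor CD44 fell by 0.33 on the log2 scale (2543, 2625 and 2696 against 2114, 2036 and 2090, adjusted p = 0.0029).

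The windows upstream of BIRC3 and of the autophagy receptor OPTN are shown because both genes rose and both hold GGG and TTCC with 3 bases of any kind between them, letters resembling the kappaB site bound by NF-kB, which are in capitals on whichever strand they were found. The windows lie at chr11:102317234-102317483 and chr10:13099832-13100081, both on the plus strand, and build and source are as above.
BIRC3: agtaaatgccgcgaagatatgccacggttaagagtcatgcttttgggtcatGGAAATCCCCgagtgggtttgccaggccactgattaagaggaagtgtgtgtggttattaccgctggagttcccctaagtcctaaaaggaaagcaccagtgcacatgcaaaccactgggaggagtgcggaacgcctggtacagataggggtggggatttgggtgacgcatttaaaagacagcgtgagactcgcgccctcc
OPTN: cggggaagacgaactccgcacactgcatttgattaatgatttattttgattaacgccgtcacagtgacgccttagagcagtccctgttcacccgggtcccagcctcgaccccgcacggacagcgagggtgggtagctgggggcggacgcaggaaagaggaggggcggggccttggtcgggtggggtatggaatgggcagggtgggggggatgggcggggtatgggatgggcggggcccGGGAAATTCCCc

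The match lies 199 bases before the start in BIRC3. In OPTN a pair of overlapping matches lies 12 and 11 bases before it. Of all windows 5.66% hold these letters on either strand, and of the windows of genes tested 6.72%, as do 7 of 20 (35%) of the NF-kB list members tested that had a window and 2 of 6 (33.3%) of those that rose.

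Of 39 tested genes of the integrated stress response (52 listed), 10 rose and 3 fell, against 5.23% and 3.79% of all genes, with a median of 0.11. Single libraries left out gave 4 to 11 increases, with 4 without vehicle replicate 2 or 3, and 1 to 5 decreases, with 1 without vehicle replicate 1 or 3 or BAQ13 replicate 2. The members moved in both directions. GDF15, a secreted stress cytokine (chromosome 19, 18374731 to 18389176), was at 42.3, 30.1 and 38.6 normalised counts against 118, 118 and 98.1 (log2 fold change 1.57, SE 0.16, adjusted p = 1.2e-05). DDIT3, the factor CHOP, rose by 1.04 (34.9, 34.6 and 37.6 against 105, 60.2 and 65.4, adjusted p = 0.0036), and KLHL24, a ubiquitin ligase adaptor, rose by 0.86 (77.2, 109 and 106 against 142, 180.5 and 214, adjusted p = 0.0033). CEBPB, a leucine zipper factor, rose by 0.68 on the log2 scale (adjusted p = 0.0004). The amino acid genes named here did not rise. ASNS, asparagine synthetase and the gene most used as its readout, was at 119, 115 and 120.2 against 113, 102 and 87.2 and did not pass the test (log2 fold change -0.23, adjusted p = 0.29). SLC7A5, the large neutral amino acid transporter LAT1, fell from 218, 218 and 221 to 123, 139 and 123 normalised counts (log2 fold change -0.77, SE 0.10, adjusted p = 0.00019). Among 36 amino acid transport and glutamine genes tested, 1 rose and 5 fell, with a median of -0.07, and 2 to 8 fell when single libraries were left out, with 2 without BAQ13 replicate 2 or any vehicle library. Of 22 cytosolic aminoacyl-tRNA synthetase genes tested, 3 rose and none fell, with a median of -0.04. AARS, the alanyl-tRNA synthetase, was at 589, 553 and 571 against 915, 912 and 922 (log2 fold change 0.68, adjusted p = 1.4e-05), and WARS, that of tryptophan, rose by 0.74 (136, 156 and 145 against 274, 263 and 199, adjusted p = 0.0014).

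Both chaperone lists had a slightly negative median. Of 39 tested genes of the unfolded protein response, none rose and 3 fell, with a median of -0.10, and 1 to 5 fell when single libraries were left out, with 1 without BAQ13 replicate 2 or any vehicle library. HSPA5, the endoplasmic reticulum chaperone BiP, was at 1965, 2056 and 1986 normalised counts against 1877, 1964 and 1994, with overlapping groups (log2 fold change -0.04, adjusted p = 0.74). PDIA3, a disulphide isomerase, fell by 0.48 on the log2 scale (817, 793 and 754 against 522, 612 and 559.9, adjusted p = 0.0013), and it was the member of the 3 whose call held in every alternative. Among 27 heat shock genes tested, 3 rose and 3 fell, against 5.23% and 3.79% of all genes, with a median of -0.03. The cytosolic chaperonin subunit CCT5 fell by 0.33 (1271, 1257 and 1255 against 1017, 999.8 and 1002, adjusted p = 0.0057), whereas the count of increases, which were in DNAJB6, HSF1 and DNAJB1, was 0 without vehicle replicate 1 or 3 or BAQ13 replicate 2.

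Of 31 p53 target genes tested (36 listed), 9 rose and none fell, against 5.23% and 3.79% of all genes, with a median of 0.19. The count was 3 to 9 when single libraries were left out, with 3 without vehicle replicate 1 or BAQ13 replicate 2. GDF15 is also in this list. BTG1, an antiproliferative gene, was at 301, 305 and 295 against 452, 472 and 509 (log2 fold change 0.67, SE 0.08, adjusted p = 0.0001), and CCNG1, cyclin G1, rose by 0.54 (204, 241 and 259.8 against 323, 345 and 352, adjusted p = 0.0039). CDKN1A, the p21 gene at the head of the list, was at 5.81, 8.93 and 1.84 normalised counts against 14, 12.8 and 10.9 and did not pass the test (adjusted p = 0.089). In the list of BCL2 family and death receptor genes, 30 of 36 were tested and 3 rose, BIRC3, BAD and BBC3, against 5.23% of all genes. The median was 0.14, and 1 increase was left without vehicle replicate 1 or BAQ13 replicate 2. BBC3, the BH3-only gene PUMA, was at 478, 564 and 559.9 against 635, 873 and 1017 (log2 fold change 0.63, adjusted p = 0.007). Its adjusted p was 0.063 without vehicle replicate 1, 0.051 without BAQ13 replicate 2 and 0.28 in the fit of all 15 libraries. BAD, another BH3-only gene, had an adjusted p of 0.024 that became 0.064, 0.13 and 0.098 without vehicle replicate 1 or 3 or BAQ13 replicate 2.

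Of 24 glycolysis genes tested, 6 rose and 1 fell, against 5.23% and 3.79% of all genes. The median of 0.03 was close to that of all genes. Leaving out single libraries gave 3 to 8 increases, with 3 without vehicle replicate 1 or 3 or BAQ13 replicate 2, and 1 to 4 decreases. ALDOC, the aldolase isoform known from the brain (chromosome 17, 28573115 to 28577264), was at 10.8, 12.3 and 8.26 normalised counts in the vehicle group and at 74.7, 85.7 and 62.0 with BAQ13 NPs. The groups were far apart, and it rose by 2.72 on the log2 scale (SE 0.22, adjusted p = 7e-07). PFKFB2, which makes the activator of phosphofructokinase, rose by 1.53 (23.2, 35.7 and 23.9 against 83, 72.9 and 85.5, adjusted p = 8e-05), and ENO2, the neuronal enolase isoform, rose by 0.95 (78.9, 51.4 and 66.1 against 123, 120.3 and 134, adjusted p = 0.00095). LDHA, lactate dehydrogenase A, fell from 1937, 1978 and 2130 to 1346, 1456 and 1540 normalised counts (log2 fold change -0.48, adjusted p = 0.00048). HK2, the hexokinase at the head of the list, was at 19.9, 16.7 and 14.7 against 5.60, 8.20 and 15.9, with overlapping groups (adjusted p = 0.15). The list of hypoxia-inducible factor targets, with 32 tested, gave 4 increases and 2 decreases and a median of 0.02, and VEGFA did not pass the test (53.1, 68.1 and 53.2 against 44.8, 43.7 and 47.8, adjusted p = 0.22). The count of increases, which were in SLC2A3, MXI1, ANKZF1 and DDIT4, was 0 without vehicle replicate 3. The window upstream of the RefSeq start of ALDOC, which lies inside the GENCODE span just given, is shown as that of the glycolysis gene with the largest change, and capitals mark the E-box CACGTG, 240 bases before that start. It lies at chr17:28576896-28577145 on the minus strand. Of glycolysis genes tested, 3 of 21 with a window (14.3%) held the E-box, and 1 of 4 (25%) of those that rose. The ALDOC window also holds letters like the sterol response element, TCACNCCAC, left here in small letters. They were held by 1 of 21 (4.76%) glycolysis genes tested and 1 of 4 (25%) of those that rose. Of the windows of genes tested, 9.44% held the E-box and 0.877% these letters. These shares too are a description only.
ALDOC: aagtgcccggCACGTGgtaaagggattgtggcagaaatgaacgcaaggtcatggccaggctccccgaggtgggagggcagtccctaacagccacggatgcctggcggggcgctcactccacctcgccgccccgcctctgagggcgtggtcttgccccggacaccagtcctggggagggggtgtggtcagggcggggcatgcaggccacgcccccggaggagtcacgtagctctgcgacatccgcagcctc

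Among 32 long noncoding RNAs tested of 40 listed, 4 rose and 1 fell, with a median of -0.10. UCA1, known for its expression in carcinomas (chromosome 19, 15828206 to 15836326), was at 238, 199 and 211 normalised counts against 748, 713 and 780.3, and rose by 1.79 on the log2 scale (SE 0.09, adjusted p = 2.6e-09). NEAT1, the scaffold of nuclear paraspeckles, was at 1597, 1508 and 1431 against 2434, 2609 and 2697 (log2 fold change 0.77, adjusted p = 2.4e-06), and MALAT1, a nuclear speckle RNA, rose by 0.38 (20959, 20211 and 20116 against 27003, 26174 and 26661, adjusted p = 0.00033). The increase of OIP5-AS1 was lost without vehicle replicate 1 or 3 or BAQ13 replicate 2, with adjusted p of 0.1, 0.088 and 0.093. KCNQ1OT1, the imprinted antisense transcript of KCNQ1, fell from 129, 153 and 128 to 94.2, 81.1 and 76.3 (log2 fold change -0.70, adjusted p = 0.0034). Whether the counting used strand is not stated, so reads of an antisense RNA and of the gene it overlaps cannot be told apart.

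Several of the largest increases belong to none of these lists. VASH2, a tubulin carboxypeptidase of the vasohibin family, was at 4.98, 2.23 and 6.43 normalised counts against 39.2, 24.6 and 43.6 (log2 fold change 2.77, adjusted p = 9.7e-05), and its vehicle values are near the floor of 3 reads. VASH2 passed the filter on low counts only through treated libraries. NDRG4, a member of the N-myc downstream-regulated family, rose by 2.58 (7.47, 10.1 and 13.8 against 70.0, 67.4 and 60.3, adjusted p = 2.4e-06). SLC2A6, a hexose transporter, was at 29.1, 22.3 and 18.4 against 105, 101 and 118 (log2 fold change 2.19, adjusted p = 1.1e-06). TSC22D3, the glucocorticoid-induced leucine zipper gene, rose by 2.15 with a wide spread between the BAQ13 libraries (6.64, 12.3 and 10.1 against 33.6, 41.0 and 66.2, adjusted p = 0.00018). UAP1L1, a relative of the enzyme that makes UDP-N-acetylglucosamine, was at 25.7, 33.5 and 35.8 against 129, 127 and 132 (log2 fold change 2.01, adjusted p = 5e-07). KIF1A, a kinesin that carries vesicles along microtubules, was at 20.8, 24.6 and 20.2 against 95.2, 82.0 and 69.6 (log2 fold change 1.86, adjusted p = 6e-06). Absence of overlap was a condition for naming these 6 genes, and each kept its call in every alternative that gave it a value. VASH2, NDRG4 and TSC22D3 had under 10 reads in a library, and so had no value under the filter of at least 10 reads in every library. At higher levels, with a mean of at least 500 normalised counts, RDH11, a retinol dehydrogenase, rose from 524, 500.2 and 518 to 1048, 988 and 921. SPAG9, the scaffold JIP4 that links organelles to motor proteins, rose from 563, 564 and 563 to 1128, 1048 and 1016, and MAP2K2, the kinase MEK2, from 581, 588 and 515 to 1378, 1013 and 823. Their log2 fold changes were 0.94, 0.92 and 0.90.

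Several genes of adhesion and the cytoskeleton fell. Of 57 genes in the list of YAP targets and the cytoskeleton, 45 were tested, and 12 fell and 1 rose, with a median of -0.20. Of all genes, 3.79% fell and 5.23% rose. The decreases were 8 to 16 when single libraries were left out, with 8 without vehicle replicate 3. KRT8 and KRT18, the paired keratins of simple epithelia, were at 315, 349.5 and 330.5 and at 969.7, 887 and 892 normalised counts in the vehicle group. With BAQ13 NPs they were at 175, 178 and 199 and at 647, 634 and 656, which gave log2 fold changes of -0.85 (SE 0.10, adjusted p = 3.5e-05) and -0.50 (adjusted p = 0.00037). The annotated spans of both genes overlap on chromosome 12, so that some of their reads may be shared, and keratins have many pseudogene copies. VCL, the focal adhesion protein vinculin, fell from 389, 415 and 429.6 to 229, 291 and 276 (log2 fold change -0.64, adjusted p = 0.00081), and CRIM1, a transmembrane binder of bone morphogenetic proteins, from 281, 328 and 285 to 180.1, 178 and 184 (log2 fold change -0.71, adjusted p = 0.00022). WWTR1, the coactivator TAZ, was at 632, 679 and 654 against 352, 442 and 521 (log2 fold change -0.60, adjusted p = 0.0039). TUBA1B, an alpha-tubulin with near-identical paralogs, fell by 0.60 (2451, 2461 and 2540 against 1255, 1713 and 2027, adjusted p = 0.0055), with an adjusted p of 0.1 in the fit of all 15 libraries. CYR61, the classical YAP target, was at 117, 106 and 137 against 42.9, 81.1 and 96.4 (log2 fold change -0.77, adjusted p = 0.042), and its adjusted p was 0.13, 0.12 and 0.21 without vehicle replicate 1, 2 or 3, 0.074 without BAQ13 replicate 2 and 0.38 in the fit of all 15 libraries. CTGF, the other target most used, had at most 1.66 normalised counts in any of the 6 libraries and was not tested. The member that rose was CALD1, caldesmon, from 508, 476 and 467 to 768, 786 and 786 (log2 fold change 0.69, adjusted p = 2.2e-05).

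In the list of extracellular matrix, integrin and protease genes, 46 of 81 were tested, and 8 fell and 1 rose, against 3.79% and 5.23% of all genes. The median of -0.03 was close to that of all genes. Leaving out single libraries gave 5 to 11 decreases. PLAUR, the urokinase receptor (chromosome 19, 43646095 to 43670547), fell from 33.2, 32.4 and 34.0 to 13.1, 11.8 and 9.22 normalised counts (log2 fold change -1.48, SE 0.23, adjusted p = 0.00081), with an adjusted p of 0.073 in the fit of all 15 libraries. COL5A2, a fibrillar collagen chain, fell by 0.62 (1059, 1114 and 1123 against 703, 711 and 735, adjusted p = 3.4e-05). COL1A2, the marker that carried most of the summed level of other cell types above, moved the same way, at 215, 213 and 252 against 169, 151 and 148 (log2 fold change -0.54, adjusted p = 0.0058), with an adjusted p of 0.062 without vehicle replicate 3, and its part in these decreases was not tested.

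Other genes of the cell surface and cortex were among the largest decreases. PHLDB2, a cortical protein that anchors microtubules near focal adhesions (chromosome 3, 111732497 to 111976517), was at 395, 418 and 377 normalised counts in the vehicle group and at 157, 153 and 150.0 with BAQ13 NPs, and fell by 1.37 on the log2 scale (SE 0.09, adjusted p = 8.9e-08). PTPRF, a receptor tyrosine phosphatase, fell from 1126, 1064 and 1096 to 558, 694 and 738 (log2 fold change -0.73, adjusted p = 0.00012). SRGN, the proteoglycan serglycin, and CLDN11, a claudin, fell by 0.65 and 0.62 on the log2 scale (1571, 1850 and 1688 against 1022, 1037 and 1193, and 624, 629 and 653 against 377, 411 and 452). Absence of overlap was likewise a condition for naming these 4 genes. FAM111B, a serine protease gene, had the lowest fold change of the genes chosen by size, from 57.3, 40.2 and 61.5 to 15.9, 17.3 and 19.3 (log2 fold change -1.53, adjusted p = 0.00024). Of the rest, MYCBP, RP5-943J3.2 and XRCC2, a MYC-binding protein, a transcript known only by its clone name and a recombination repair gene, kept their call in every alternative, with log2 fold changes of -1.30, -1.22 and -1.05. IGFBP4, TAP2 and PFN1, with log2 fold changes of -1.43, -1.19 and -1.19, did not. IGFBP4 lost it without vehicle replicate 2 or 3 (adjusted p = 0.059 and 0.052) and in the fit of all 15 libraries (0.054), and TAP2 without vehicle replicate 1 (0.052). PFN1 lost it without any of the vehicle replicates (0.05, 0.091 and 0.058), in the fit of all 15 libraries (0.3) and by DESeq2 (0.094).

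In most of the remaining lists few members were called, and several counts rested on 1 library. Of 82 ribosomal protein genes tested, 4 rose and 1 fell (median 0.03), but 21 rose without BAQ13 replicate 1, and RPLP0 was at 3016, 2926 and 2982 normalised counts against 2948, 3058 and 3054. Of 57 ribosome biogenesis genes, none rose and 3 fell (median -0.15), with 1 to 9 decreases when single libraries were left out, and EBNA1BP2, a nucleolar assembly factor, fell from 453, 419.9 and 490.2 to 292, 291 and 297 (log2 fold change -0.63, adjusted p = 0.0002). Of 78 nuclear respiratory chain genes, 2 rose and 1 fell (median -0.08), and none was called without BAQ13 replicate 2 or any single vehicle library. Of 43 proteasome genes none rose and 4 fell (median -0.12), with 0 decreases without vehicle replicate 2 or 3. Of 82 vesicle trafficking genes, 5 rose and 2 fell (median 0.09), shares near the 5.23% and 3.79% of all genes. The fits without a single library gave 3 to 9 increases, with 3 without vehicle replicate 3, and 0 to 4 decreases, with 0 without any vehicle library. Among the increases was RAB32, a Rab GTPase of lysosome-related organelles, at 45.7, 58.1 and 66.1 against 156, 99.3 and 101 (log2 fold change 1.04, adjusted p = 0.0021). The late endosomal RAB7A rose by 0.48 on the log2 scale (525, 535 and 479 against 709, 727 and 708, adjusted p = 0.0009). Of 19 immediate early genes, 3 rose (median 0.05), with IER3 at 56.5, 45.8 and 47.7 against 128, 98.4 and 79.6 and KLF6 at 374, 329 and 316 against 538, 534 and 471. Of 24 MAPK feedback genes, 2 rose, IER3 and PHLDA2, and 1 fell (median 0.01). Of 22 interferon-stimulated genes, 2 rose and 1 fell (median 0.10), and the increases of IFIT3 and HLA-E were both lost without vehicle replicate 1 or 3 or BAQ13 replicate 2. Of 20 metallothionein and zinc transporter genes, 1 rose, SLC39A10 (log2 fold change 0.40), and 2 fell (median -0.17), the latter both lost without vehicle replicate 2 or 3. For the 0 counts in this paragraph and above, limma gave 2450 of the 10495 genes an unadjusted p under 0.05, edgeR 2441 and DESeq2 1538.

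**Figure D3:**
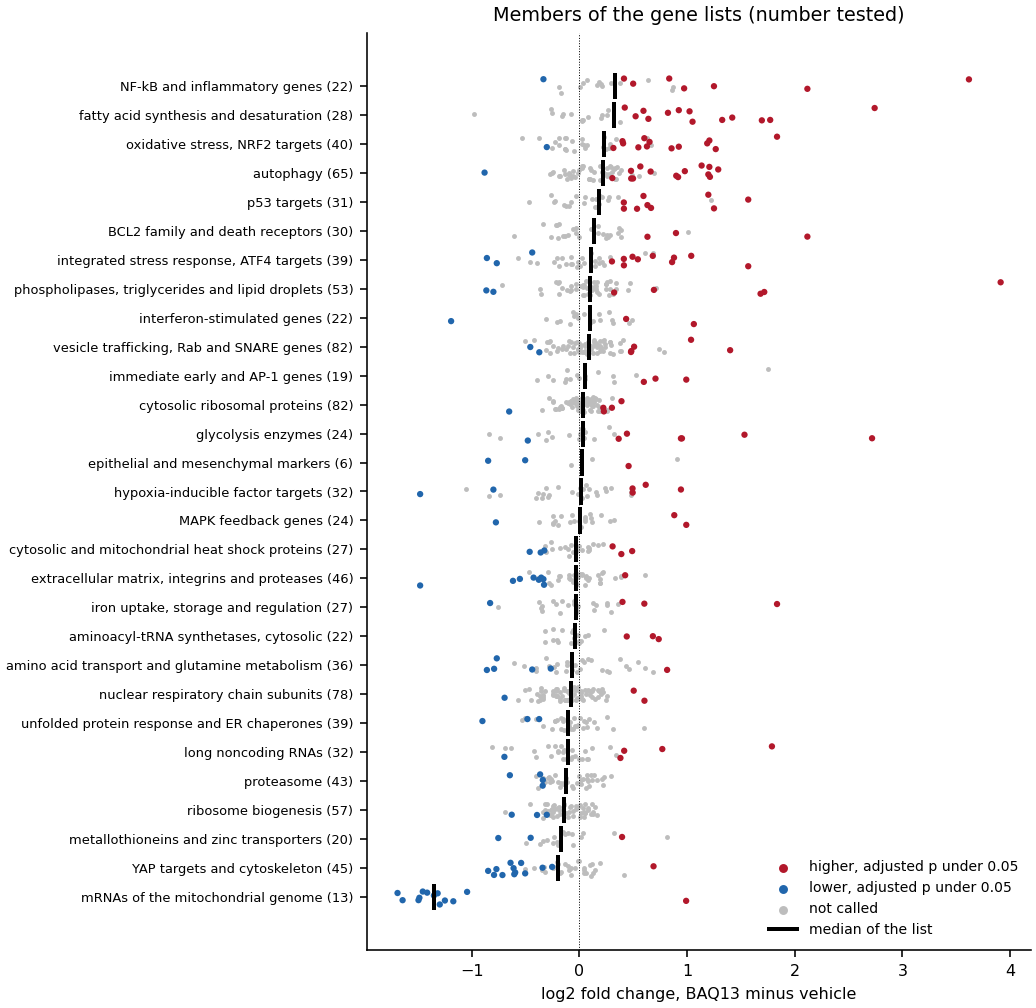
Each point is a tested member of a gene list, placed by its log2 fold change, BAQ13 NPs minus vehicle, on the horizontal axis; the lists are in rows ordered by their median (black bars) with the number of members tested in brackets, and red and blue points rose or fell at an adjusted p under 0.05. Fatty acid synthesis has 13 red points and no blue ones, and the list of YAP targets and the cytoskeleton has 12 blue points and 1 red one.

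RNAs of the mitochondrial genome changed in both directions. Of the 33 genes tested, 17 fell and 9 rose. All 12 mRNA genes on the plus strand fell, by -1.69 to -1.04 on the log2 scale with a median of -1.38, and their calls held in every alternative. Both rRNA genes rose, and of 11 tRNA genes on that strand 3 rose and 5 fell. On the minus strand, MT-ND6 and 3 of 7 tRNA genes rose and none fell. Of the 5 plus-strand tRNA genes that fell, MT-TM, MT-TR and MT-TL2 lost their call without any single vehicle library or BAQ13 replicate 2, and MT-TI without vehicle replicate 2, which left 2, 1, 2 and 2 decreases in these fits. MT-TS2 kept its call in all 6. On the minus strand, MT-TS1 lost its call in all of these fits but that without BAQ13 replicate 1. The share of reads on all mitochondrial genes stayed in one range, at 17.48, 18.07 and 17.41% in the vehicle group and 18.66, 16.77 and 16.47% with BAQ13 NPs. Within it, the plus-strand mRNAs went from 6.07, 6.07 and 5.91% to 2.38, 2.17 and 2.18%, and the rRNAs from 10.69, 11.29 and 10.82% to 14.63, 13.35 and 13.28%. MT-ND3, a subunit of complex I, had the largest decrease of the mRNAs, from 9730, 10324 and 10062 to 2869, 3063 and 3434 normalised counts (log2 fold change -1.69, adjusted p = 5.3e-10). MT-ND4, of the same complex, fell by 1.49 on the log2 scale (20419, 20466 and 19620 against 7947, 6783 and 6933). MT-ND6, the complex I subunit on the other strand, rose from 563, 481 and 476 to 1154, 997 and 884 (log2 fold change 0.99, adjusted p = 8.6e-06). MT-RNR1, the small rRNA, rose by 0.58 (59459, 63994 and 60474 against 99200, 88789 and 87096, adjusted p = 2.5e-05), and MT-RNR2, the large rRNA, by 0.26, a call that was lost without vehicle replicate 1, 2 or 3. The tRNA genes at either end of the small rRNA, MT-TF and MT-TV, and MT-TL1 beyond the large rRNA rose by 1.54, 1.17 and 0.76. The BAQ13 libraries spread widely in MT-TF, which was at 3959, 3944 and 3725 normalised counts in the vehicle group against 15305, 10869 and 8588. MT-TC, the cysteine tRNA on the minus strand, was at 73.1, 78.2 and 79.9 against 163, 193 and 214 (log2 fold change 1.28, adjusted p = 6.5e-06), and MT-TS2 fell by 1.17. The tRNA and rRNA genes were picked out after their values were seen. Whether reads on them came from mature tRNAs and rRNAs or from the long precursors was not tested. Mitochondrial genes have near-identical copies in the nuclear genome, between which reads may be split, and it is not stated whether counting used strand, so that the reads of overlapping genes on opposite strands cannot be told apart. MTND2P28, such a copy of MT-ND2 on chromosome 1 (629640 to 630683), fell by 1.42 on the log2 scale (75.6, 83.7 and 82.6 against 26.1, 26.4 and 36.9 normalised counts), and reads of the mitochondrial gene counted on the copy cannot be told apart from its own.

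**Figure D4:**
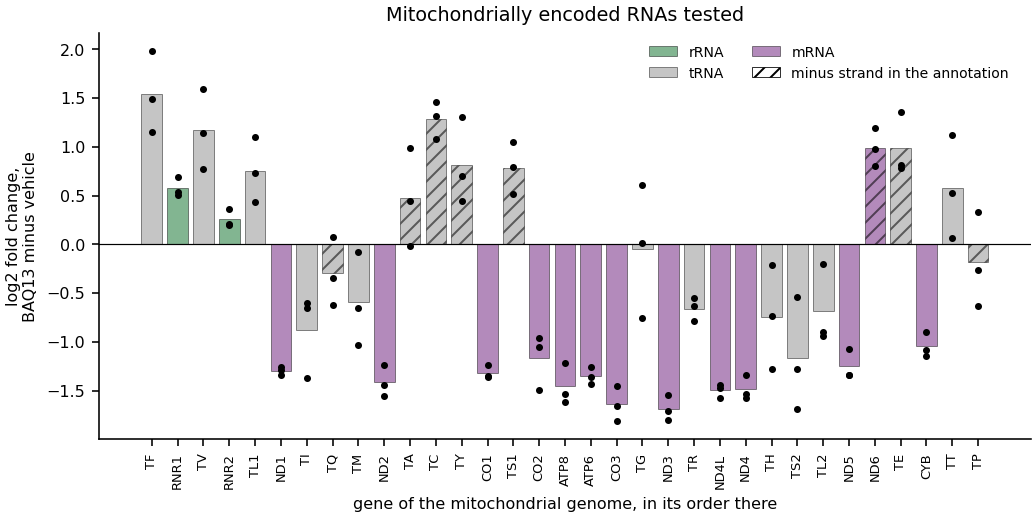
Log2 fold change, BAQ13 NPs minus vehicle, of 33 genes of the mitochondrial genome in their order there; bars are the fitted fold changes, points are each BAQ13 library minus the mean of the vehicle group, colours give the RNA class and hatched bars are on the minus strand of the annotation. The mRNAs on the plus strand all lie between -1.69 and -1.04, while both rRNAs and MT-ND6 lie above 0.

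Lys05 and BAQ12 NPs were given at the same dose for the same time, so the genes above were compared directly between agents, in 2 pairs with p-values adjusted over both. Most of these genes were chosen by their change in the same BAQ13 libraries, which by itself favours a difference in the same direction. For them the direct tests and intervals are not independent of the choice. BAQ13 NPs differed from Lys05 in 280 genes, of which 200 (1.91%) were higher and 80 (0.762%) lower with BAQ13. The count was 211 in the fit of all 15 libraries and 111 to 541 when single libraries were left out, with 117, 111 and 152 without Lys05 replicate 1, 2 or 3, 115 without BAQ13 replicate 2 and 471 and 541 without BAQ13 replicate 1 or 3. Of the fatty acid synthesis genes, 10 were higher with BAQ13 NPs than with Lys05 and none lower. FASN was at 645 ± 34.2 normalised counts with Lys05 and at 1708 ± 80.3 with BAQ13 NPs (SD, n = 3 each, log2 difference 1.40, 95% interval 1.25 to 1.56, adjusted p = 4.3e-08 by limma). ACSS2 was at 23.8 ± 4.41 with Lys05, close to 25.1 ± 8.08 in the vehicle group, and the difference from BAQ13 NPs was 2.78 on the log2 scale (95% interval 2.43 to 3.13). BIRC3, UCA1, HMOX1 and SQSTM1 differed by 1.80, 1.38, 1.59 and 1.02, each higher with BAQ13 NPs. ALDOC and SLC2A6 differed by 2.06 and 2.16. PHLDB2 was lower with BAQ13 NPs by 1.09 on the log2 scale (95% interval -1.30 to -0.88). The 5 autophagy genes, 5 oxidative stress genes and 4 NF-kB genes called in this pair were higher with BAQ13 NPs, apart from 1 further NF-kB gene that was lower. The mitochondrial mRNAs were lower with Lys05 than with BAQ13 NPs. All 12 on the plus strand passed the test, with a median log2 difference of 0.76, BAQ13 minus Lys05. MT-ATP6 was at 5557, 5305 and 5993 normalised counts with BAQ13 NPs, 2602 ± 107 with Lys05 (SD, n = 3) and 14683, 14288 and 13967 in the vehicle group, and the direct difference was 1.11 (95% interval 0.97 to 1.25, adjusted p = 1.1e-07). MT-TC was lower with BAQ13 NPs than with Lys05 by 1.39 on the log2 scale.

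According to the study, BAQ12 and BAQ13 differ in structure by a single methylene unit. The pair differed in 29 genes, 0.276% of those tested, all higher with BAQ13 NPs. Without BAQ12 replicate 3 the count was 96, of which 12 were lower, and the smallest count, 7, was without BAQ13 replicate 2. The calls included ACSS2 (62.4, 57.0 and 67.8 normalised counts with BAQ12, log2 difference 1.41, 95% interval 1.09 to 1.73, adjusted p = 0.0017), BIRC3 (35.8, 34.9 and 33.9, difference 1.57, interval 1.24 to 1.91, adjusted p = 0.0011), UCA1 (352, 361 and 348, difference 1.08, interval 0.86 to 1.29, adjusted p = 0.00073) and FASN (915, 973 and 1122, difference 0.77, interval 0.53 to 1.01, adjusted p = 0.01). SLC2A6, NDRG4, OPTN and IRF1 were also higher with BAQ13 NPs, by 1.58, 1.18, 0.65 and 0.95. For ACLY and SCD the interval lay above 0 but the adjusted p missed the threshold (0.41 to 1.27 and 0.09, and 0.25 to 0.66 and 0.053). Without BAQ12 replicate 3, SCD passed it with a difference of 0.40 (adjusted p = 0.013 by limma). HMOX1 was at 67.0, 82.5 and 181 normalised counts with BAQ12, the highest in replicate 3, and its difference of 0.73 (adjusted p = 0.52) became 1.16 (adjusted p = 0.013) without that library. SQSTM1 was likewise highest in BAQ12 replicate 3 (399, 430.1 and 578), with a difference of 0.59 and an adjusted p of 0.13. The 12 genes that were lower with BAQ13 NPs without BAQ12 replicate 3 included PHLDB2, PLAUR and SRGN. Their differences in that fit were -0.60, -1.44 and -0.48 (adjusted p = 0.03, 0.023 and 0.019 by limma). With all 6 libraries they were not called (adjusted p = 0.09, 0.83 and 0.5). MT-ATP6 differed by 0.51 with an adjusted p of 0.12, and by 0.63 with an adjusted p of 0.0012 without BAQ12 replicate 3. None of the 12 plus-strand mRNAs passed the test between BAQ13 and BAQ12 NPs by limma with all 6 libraries, and 8 did without BAQ12 replicate 3. Over all genes of this pair, 460 had an unadjusted p under 0.05 by limma, 464 by edgeR and 220 by DESeq2, with 32 and 26 called at an adjusted p under 0.05 by the latter pair of tools.

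**Figure D5:**
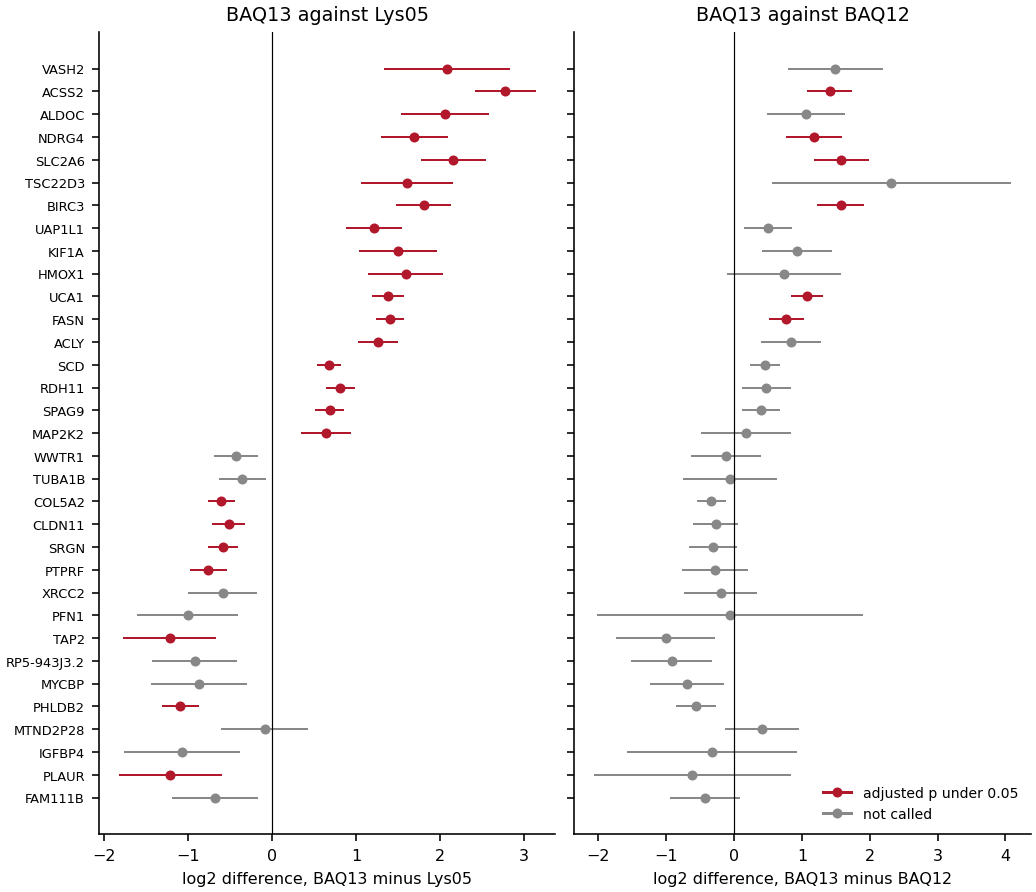
Log2 differences between BAQ13 NPs and Lys05 (left) and between BAQ13 NPs and BAQ12 NPs (right) on the horizontal axes for the genes chosen by the size of their change against vehicle, with points for the fitted difference and lines for its 95% interval (3 libraries a group); red marks an adjusted p under 0.05. Genes that rose against vehicle lie to the right of 0 in the left panel, with ACSS2 at 2.78 and SLC2A6 at 2.16, and fewer of them are red in the right panel. The choice of genes used the same BAQ13 libraries and by itself favours this side.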

How the data were processed

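RNA was sequenced from 15 libraries of MIA PaCa-2 cells in 5 groups of 3 by their labels. The deposited unit is a signal, namely reads counted on each gene and then scaled by the authors with a size factor. In each library 100% of the values were whole multiples of the value of 1 read (tolerance 0.01 reads), so that whole reads could be recovered. The submitters' processing notes name STAR, HTSeq, DESeq2 and the builds GRCh38 and hg38 without their roles or versions. The labels give a 3′-end mRNA kit, whereas the methods give a stranded paired-end kit, and neither could be checked against the files. If reads come from the 3′ end, a change in poly(A) site would alter a count, and levels were not compared between genes. Coordinates are from GENCODE release 29, which holds 56531 of the 60107 identifiers, and upstream sequences are from RefSeq, in which 104 of the 152 genes named by the rule below had a window.

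Genes were kept by edgeR's filterByExpr on the recovered reads of all 15 libraries (minimum count 10, minimum total 15), which left 10495. A gene low in the vehicle group could thus be kept through its level in treated libraries alone. Each pair of groups was compared with limma (eBayes with a variance trend) on log2(value + 1), with two-sided p-values adjusted by the Benjamini-Hochberg method over all genes tested, and over both pairs together for BAQ13 against Lys05 and against BAQ12. Fold changes are on the log2(value + 1) scale, which understates the change of low genes. The fit used the 6 libraries of each pair, since the study compares groups in pairs and BAQ12 replicate 3, which belongs to neither main group, widens the spread shared over all 15 libraries. The members and gene lists were chosen with earlier results of these data known. Genes were named if they were among the 12 largest increases or decreases with an adjusted p under 0.05, no overlap between groups and a mean of at least 20 normalised counts, among the 6 largest with a mean of at least 500, among the up to 4 members with the smallest adjusted p per direction in a list, or first in a list, and others are said to have been chosen after their values were seen. Lysosome, cholesterol, liver X receptor, cell-cycle and mitochondrial genes were left out of the first and second of these. The alternatives were pseudocounts of 0.1 and 5, no filter, at least 10 reads in every library, all 15 or 14 libraries, the replicate number as a block, TMM factors, edgeR's quasi-likelihood test and DESeq2 on the recovered reads, and leaving out each library. All tests were tried on simulated data. Versions were DESeq2 1.42.0, edgeR 4.0.16 and limma 3.58.1 under R 4.3.3, with tables and plots made by matplotlib 3.10.9, pandas 2.3.3 and numpy 2.4.6 under Python 3.11.15. BAQ12O was not compared, and some genes that the rule selects are not reported here.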

Additional observations from a re-analysis of the deposited data

Results flagged for a closer look

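The changes against vehicle of BAQ13 NPs and of the other agents at the same dose and time were compared by the direct test between agents, and the genes chosen by size that passed it are given here as log2 differences. The choice by size used the same BAQ13 libraries as the direct test, so it favours differences in the direction of the change against vehicle. Against Lys05, the difference was 2.78 for ACSS2, 2.16 for SLC2A6, 2.08 for VASH2, 2.06 for ALDOC, 1.80 for BIRC3, 1.69 for NDRG4, 1.60 for TSC22D3 and 1.59 for HMOX1. It was 1.50 for KIF1A, 1.40 for FASN, 1.38 for UCA1, 1.26 for ACLY, 1.21 for UAP1L1, 0.81 for RDH11, 0.69 for SPAG9, 0.68 for SCD and 0.65 for MAP2K2. All genes named so far were higher with BAQ13 NPs than with Lys05, for which the same dose was not an equally effective one, as given above. Of the genes that fell against vehicle, TAP2 differed by -1.22, PLAUR by -1.21, PHLDB2 by -1.09, PTPRF by -0.76, COL5A2 by -0.60, SRGN by -0.58 and CLDN11 by -0.51, each lower with BAQ13 NPs. Against BAQ12 NPs, with BAQ12 replicate 3 kept, SLC2A6 differed by 1.58, BIRC3 by 1.57, ACSS2 by 1.41, NDRG4 by 1.18, UCA1 by 1.08 and FASN by 0.77, each higher with BAQ13 NPs.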

How the results depend on the processing

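The count of genes changed by BAQ13 NPs against vehicle, 947, was 606 in the fit of all 15 libraries, 1441 in that of the 14 libraries without BAQ12 replicate 3, 507 by DESeq2 and 400 to 1446 when single libraries were left out. Genes past the study's fold and p threshold numbered 242 to 332 in the latter fits, 286 with a pseudocount of 0.1, 130 with one of 5, 685 with no filter on low values and 124 with at least 10 reads in every library, against 231. TMM factors gave 577 increases among 949 calls, against 549 of 947. The count of 280 against Lys05 was 726 in the fit of 14 libraries and 111 to 541 when single libraries were left out, and the count of 29 against BAQ12 was 80 with all 15 libraries, 417 with 14 and 7 to 96 when single libraries were left out. The cause of these shifts was not tested. Of 139 named genes that were called, 79 kept their call in every alternative that gave them a value, 73 of these in all 16, and none reversed, and 1936 of 2211 tests of a gene under an alternative gave the same call. The medians of the gene lists moved by less than 1 SD over the libraries in 450 of 480 cases. Between 1864594 and 2500551 reads per library limit what can be seen of genes near the floor of 3 reads.

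The fit with a replicate block gave 1148 calls against vehicle, 135 against Lys05 and 5 against BAQ12. The labels do not say what a number shares. The correlation between same-numbered libraries of BAQ13 and vehicle, after subtracting each group's mean, was 0.174, -0.044 and 0.155 over 5470 genes. BAQ13 replicate 1 (-0.03 and -0.155 with the other numbers) and replicate 3 (-0.206 and 0.063) correlated best with their own number. BAQ13 replicate 2 did not (0.007 and 0.038). Whether libraries of the same number share a source of variation was not tested, and the numbers were not taken as pairs.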

Other observations

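Further members of the lists changed at lower levels, and they were chosen after their values were seen. FADS1, a fatty acid desaturase, was at 119, 103 and 129 normalised counts in the vehicle group and at 205, 172 and 171 with BAQ13 NPs (log2 fold change 0.64, adjusted p = 0.0039 by limma). PNPLA3, a lipase of lipid droplets that is induced with fatty acid synthesis, was at 41.5, 49.1 and 34.0 against 78.4, 88.4 and 87.2 (log2 fold change 1.02, adjusted p = 0.00091). ACACA, the carboxylase that makes malonyl-CoA, rose by 0.42 on the log2 scale (141, 153 and 129 against 187, 171 and 211, adjusted p = 0.032). MAP1LC3B, the LC3 gene of the autophagosome membrane, was at 149, 159.7 and 171 against 204, 238 and 236 (log2 fold change 0.50, adjusted p = 0.0081). NT5E, the surface enzyme CD73, fell from 106, 123 and 107 to 72.8, 62.9 and 57.8 (log2 fold change -0.79, adjusted p = 0.0017), and ZYX, the focal adhesion protein zyxin, from 134, 134 and 159.7 to 99.8, 102 and 77.9 (log2 fold change -0.61, adjusted p = 0.01).

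ODC1, the enzyme that starts polyamine synthesis, fell from 78.0, 99.4 and 89.0 to 44.8, 47.4 and 61.2 normalised counts (log2 fold change -0.79, adjusted p = 0.0059 by limma), with an adjusted p of 0.056 without vehicle replicate 2. SAT1, which acts on polyamines in the opposite direction, rose as described above. The mesenchymal factor ZEB1 rose by 0.46 on the log2 scale (adjusted p = 0.023), a call that was lost without vehicle replicate 1 or 2 or BAQ13 replicate 2 with adjusted p of 0.063, 0.14 and 0.096.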
